A study of Caenorhabditis elegans with 2 samples.

Results

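PHA-2, a homeobox protein of the Hex type, is known for its role in forming the isthmus of the Caenorhabditis elegans pharynx. Its ChIP-seq peaks at the starts of non-coding RNA genes other than tRNA, snoRNA, snRNA and miRNA genes numbered 342 of the 2902 nuclear peaks with a signal value of 80 or more in the list called on the pooled replicates. A peak was taken when its summit lay between 1000 bp upstream and 500 bp downstream of the 5′ end of a gene of biotype ncRNA, lincRNA, antisense RNA or piRNA. Summits in the same window of a protein-coding or miRNA gene, and summits within 200 bp of a tRNA, snoRNA or snRNA gene, were left out. Signal and position therefore chose the peaks, and both are given below as descriptions without a test.

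The single group consisted of whole late embryos of both sexes of strain OP687, with the genotype unc-119(tm4063) III; wgIs687, collected 3 h after synchronisation by egg bleaching. These worms are unc-119 mutants with a transgene for PHA-2 fused at its C terminus to GFP and FLAG, and the chromatin was sonicated and precipitated with an antibody against GFP, although the antibody field of the labels reads pha-2. There were 2 biological replicates, which name the same possible control, not analysed here. With 1 group, no difference between conditions can be tested. The peak lists hold no read counts, so the depth is unknown, and intervals below are exact Clopper-Pearson 95% intervals that cover only the counting of peaks.

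Non-coding RNA genes of this kind have different tasks. RNase P RNA is the catalytic RNA that trims the 5′ end of tRNA precursors, and the signal recognition particle (SRP) RNA is the scaffold of the particle that brings ribosomes to the endoplasmic reticulum. In vertebrates both are transcribed by RNA polymerase III. The 21U-RNAs are the piRNAs of C. elegans; they guide the Argonaute PRG-1 in the germline, and their genes are packed in clusters on chromosome IV. Most other genes of biotype ncRNA in the worm annotation are short transcripts with no known function.

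The following DNA lies under the summits of 8 peaks with a pooled signal above 200, picked by hand. The closest non-coding RNA gene was an SRP RNA gene at 1 of them and another gene of biotype ncRNA at the rest. The peaks at T24B8.22 and Y57G11C.1146 also had at least 1 piRNA gene in range of the rule. This selection does not stand for all the highest signals. Each window runs from 75 bp before to 75 bp after the summit, is read 5′ to 3′ on the strand of the closest non-coding RNA gene, and comes from the RefSeq WBcel235 genome (the ce11 assembly). Capitals mark matches on either strand to 12 short motifs, of which homeobox factors are known for CAATTA or else TAATTA, FoxA factors for TGTTTAC as well as for TGTTTGC, zinc finger factors of the GATA family for the word GATAA, and E-box binders for CACGTG or for the form CAGCTG. The others were the GA repeat GAGAGA, the word CTGCGTCT, the run TTTTTT, the tRNA B box core GGTTCGA and the Ruby motif of piRNA genes, CTGTTTCA.
F13D11.9 (chrX:5812124-5812274, minus strand): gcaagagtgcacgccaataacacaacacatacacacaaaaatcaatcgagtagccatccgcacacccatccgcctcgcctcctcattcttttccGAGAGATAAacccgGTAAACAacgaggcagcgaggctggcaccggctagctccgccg
K10H10.11 (chrII:14496947-14497097, plus strand): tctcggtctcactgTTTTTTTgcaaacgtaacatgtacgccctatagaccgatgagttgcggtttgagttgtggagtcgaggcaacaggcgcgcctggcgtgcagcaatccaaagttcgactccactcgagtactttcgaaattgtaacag
srpr-2.2 (chrIII:5031547-5031697, minus strand): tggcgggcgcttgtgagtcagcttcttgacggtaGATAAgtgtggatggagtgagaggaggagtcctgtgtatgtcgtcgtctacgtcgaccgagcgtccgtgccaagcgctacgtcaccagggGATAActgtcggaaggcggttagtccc
Y46E12BL.9 (chrII:15263160-15263310, plus strand): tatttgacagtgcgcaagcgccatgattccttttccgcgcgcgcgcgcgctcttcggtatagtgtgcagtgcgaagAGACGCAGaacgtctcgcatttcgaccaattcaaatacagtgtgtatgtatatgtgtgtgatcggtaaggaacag
T24B8.22 (chrII:9060424-9060574, plus strand): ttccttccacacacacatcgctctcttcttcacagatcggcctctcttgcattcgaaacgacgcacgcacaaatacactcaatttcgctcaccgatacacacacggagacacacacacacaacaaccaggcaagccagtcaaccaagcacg
C01B10.49 (chrIV:6648757-6648907, minus strand): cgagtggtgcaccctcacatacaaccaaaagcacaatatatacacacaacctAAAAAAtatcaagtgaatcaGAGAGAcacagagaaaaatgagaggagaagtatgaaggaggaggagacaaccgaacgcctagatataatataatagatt
F40F9.15 (chrV:9731307-9731457, minus strand): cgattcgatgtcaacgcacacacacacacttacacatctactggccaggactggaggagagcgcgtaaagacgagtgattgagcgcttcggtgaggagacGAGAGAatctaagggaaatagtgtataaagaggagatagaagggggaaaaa
Y57G11C.1146 (chrIV:14874975-14875125, plus strand): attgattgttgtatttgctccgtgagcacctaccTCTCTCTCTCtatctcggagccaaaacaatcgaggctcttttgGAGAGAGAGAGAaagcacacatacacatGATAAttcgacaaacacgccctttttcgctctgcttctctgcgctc

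The window at F13D11.9 held GAGAGA, an overlapping GATAA and the FoxA motif TGTTTAC. Those at C01B10.49, F40F9.15 and Y57G11C.1146 held GAGAGA, and the one at T24B8.22 held none of the 12. None of the 8 held a homeobox motif, which says only that those letters are not in these windows.

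The strongest of all 342 peaks lay on rpr-1, the gene of RNase P RNA. It spanned I:13463861-13464080, with its summit 12 bp downstream of the gene's 5′ end (distances from here on are positive downstream and negative upstream). Its pooled signal was 445, with 222 in replicate 1 and 223 in replicate 2, and it ranked 22 among all nuclear pooled peaks. The gene sits inside an intron of the protein-coding gene ints-8. A second summit at rpr-1, at +217, had a pooled signal of 82.3 and was matched to the same replicate peaks as the first.

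All 5 annotated SRP RNA genes had a peak in the set. At srpr-2.2 (III:5031394-5031849, summit at +86) the signal was 314 pooled, 177 in replicate 1 and 140 in replicate 2. At srpr-1.1 (III:4378524-4378979) it was 237, 133 and 103 in the same order, but this summit lay at +454, beyond the gene's 3′ end and in an exon of the protein-coding gene pals-26. The values at srpr-2.1 (III:5211128-5211583, +136) were 205, 111 and 86.5. These 3 genes differed in height, and replicate 1 was the higher replicate at each.

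The values at srpr-1.2 (III:4369406-4369861, +166) were 203 pooled, 112 in replicate 1 and 85.9 in replicate 2. Those at srpr-3 (V:9293379-9293834, +25) were 105, 61.3 and 43.8, the lowest of the 5 in all 3 lists. The first 4 genes were in the authors' optimal list, which was thresholded by irreproducible discovery rate (IDR), and srpr-3 was not. The lowest nuclear pooled signal in that list was 120.2, above the 105 at srpr-3. Its absence is therefore no separate measure of agreement between replicates. A second summit at srpr-2.1, at +337, had a pooled signal of 90.01 and shared its replicate peaks with the first.

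The SRP RNA genes are near copies, which limits what each peak says about its own gene. They are 298 or 299 bp long and 81.7% to 99% identical in pairs, srpr-2.1 and srpr-2.2 being the closest pair and srpr-3 the most distant gene. The first 60 bases of each are shown because the copies can hardly be told apart there; capitals mark bases that differ from srpr-2.1.
srpr-1.1 (chrIII:4379147-4379206, minus strand): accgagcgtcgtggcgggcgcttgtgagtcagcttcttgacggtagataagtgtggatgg
srpr-1.2 (chrIII:4369468-4369527, plus strand): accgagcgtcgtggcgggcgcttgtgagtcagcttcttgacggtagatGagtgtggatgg
srpr-2.1 (chrIII:5211220-5211279, plus strand): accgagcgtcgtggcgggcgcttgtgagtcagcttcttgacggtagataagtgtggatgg
srpr-2.2 (chrIII:5031649-5031708, minus strand): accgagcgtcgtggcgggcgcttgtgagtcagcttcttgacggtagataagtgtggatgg
srpr-3 (chrV:9293573-9293632, minus strand): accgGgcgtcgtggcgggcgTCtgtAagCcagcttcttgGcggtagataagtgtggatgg

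No base differed from srpr-2.1 in srpr-1.1 or srpr-2.2, 1 differed in srpr-1.2 and 6 in srpr-3. The summit windows at srpr-1.2, srpr-2.1 and srpr-2.2 each had 3 further copies in the genome, at 90% identity over 80% of the window, whereas those at srpr-1.1 and srpr-3 had 0. The srpr-1.1 window lies outside its gene, but the peak reaches into the gene, which is 98.3% identical to srpr-1.2. How the authors placed reads that match several copies is not given in the sources used here. Signals at srpr-1.1, srpr-1.2, srpr-2.1 and srpr-2.2 may therefore share reads.

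The list of structural RNAs held 11 genes of these biotypes, and 6 of them (54.5%) lay in the window of a peak of the set, with 8 peaks in all. The other 5 did not. A peak at mrpr-1, the RNase MRP RNA gene, was strong (246 pooled, 157 in replicate 1 and 93.1 in replicate 2, at +15) but lay in a protein-coding window, which kept it out. Near rncs-1, which encodes a non-coding RNA that inhibits Dicer, the pooled signal was 71.2, under the minimum. It was 33.8 near tts-1, a long non-coding RNA, where no replicate list had a matching peak. No relaxed summit lay in the window of yrn-1, the Y RNA gene, or of lep-5, a lincRNA that acts in developmental timing.

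**Figure D1:**
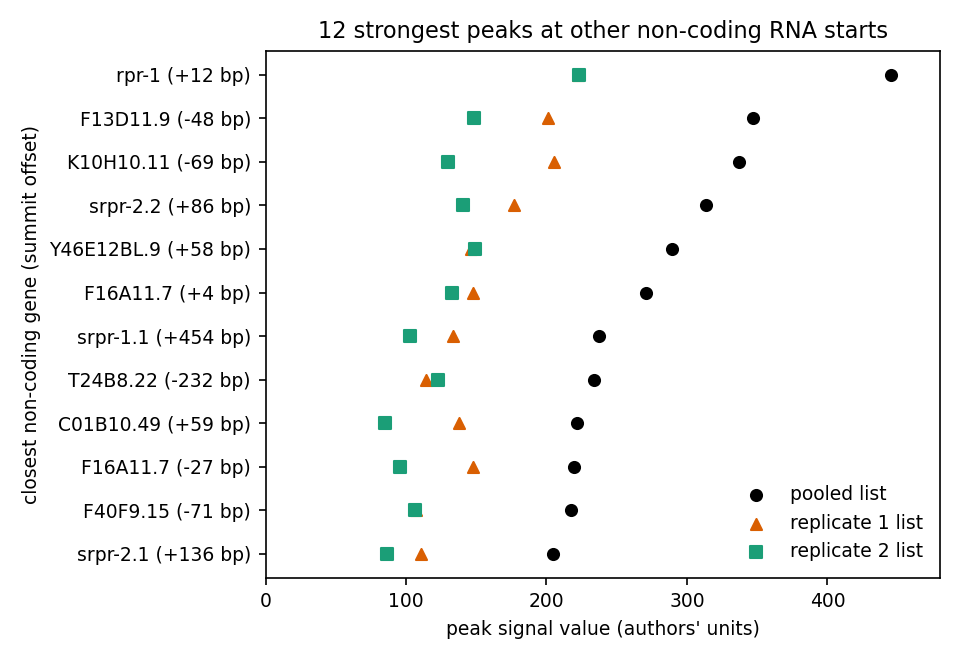
Pooled and replicate signal values (authors' units, horizontal axis) of the 12 strongest peaks of the set, each named by its closest non-coding RNA gene with the summit offset in bp. Pooled signals run from 445 at rpr-1 to 205 at srpr-2.1; the replicates nearly coincide at rpr-1, Y46E12BL.9 and F40F9.15, and replicate 1 is well to the right at K10H10.11 and C01B10.49.

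The other strong peaks lay at genes of biotype ncRNA known only by their sequence names. At F13D11.9 (X:5811971-5812426, -48 bp) the signal was 347 pooled, 201 in replicate 1 and 149 in replicate 2. At K10H10.11 (II:14496794-14497249, -69 bp) it was 337, 206 and 130. At Y46E12BL.9 (II:15263007-15263462, +58 bp) it was 290, 146 and 149. Replicate 1 was the higher at the first 2, and the replicates were nearly equal at the last.

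At F16A11.7, inside an intron of ppfr-1, 2 summits (peaks I:9382756-9383211 and I:9382969-9383424) stood near the opposite ends of a pair of genes that have the same coordinates on opposite strands. The first had 271 pooled, 148 in replicate 1 and 133 in replicate 2, and the second 219, 148 and 95.5. Both were matched to the same replicate 1 peak. At T24B8.22 (II:9060271-9060726, -232 bp) the values were 234, 114 and 123, with replicate 2 the higher. At C01B10.49 (IV:6648604-6649059, +59 bp), which lies outside protein-coding genes, they were 222, 138 and 85.3. At F40F9.15 (V:9731154-9731609, -71 bp), in an exon of drap-1, they were 217, 107 and 107. An annotated protein-coding transcript start lay in the windows at T24B8.22 and F40F9.15.

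The other peaks followed without a gap. The median pooled signal of the 342 peaks was 99.5, the middle of the set ran from 86.4 to 124, 174 peaks were under 100, 91 were at 120 or more and 15 at 200 or more. The 2 peaks just inside the minimum were at 21ur-3206 (80.07) and Y46E12BR.2 (80.02), and the 2 just outside were at ZK377.4 (79.94) and C27D6.14 (79.93). The median of the 2560 other nuclear peaks above the minimum was 100.2, close to that of the set. By class it was 160 for the 336 peaks near a tRNA, snoRNA or snRNA gene, 102 for the 1172 in a protein-coding or miRNA window and 93.5 for the 1052 in no such window.

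The optimal list held 89 of the 342 peaks, 26.0% (21.5% to 31.0%), against 29.5% of all 2902 nuclear peaks above the minimum. The optimal list is cut from the same pooled signal, so this share follows from the heights above. It was 65.5% for peaks near tRNA, snoRNA or snRNA genes, 31.2% for those in protein-coding or miRNA windows and 17.2% for those in no window.

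A peak was said to be met in a replicate when it held the summit of 1 of that replicate's 2902 strongest nuclear peaks. Both replicates met 168 of the 342 peaks, 49.1% (43.7% to 54.6%), against 48.4% of all 2902. A further 77 (22.5%) were met in replicate 1 only, 68 (19.9%) in replicate 2 only and 29 (8.48%) in neither. Among all 2902 these shares were close, at 22.6%, 22% and 6.96%. Among these 29 the strongest were at C18F3.11 (94.5 pooled, 41.5 in replicate 1, 43.7 in replicate 2), at 21ur-15058 (88.6, 39.8 and 41.0) and at R02D5.14 (88.3, 38.5 and 41.3). The replicate lists of 2902 ended at 44.9 and 44.1, and the 3 peaks ranked 3736, 4369 and 4905 in replicate 1 and 3024, 3791 and 3683 in replicate 2.

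In the whole relaxed lists, 331 of the 342 peaks (96.8%) had a match in both replicates, against 96.5% of all 2902 nuclear peaks. Of the set, 6 had none in replicate 1 and 5 none in replicate 2. Across the 331, the replicate signals were only loosely related, with a Spearman coefficient of 0.36 and a Pearson coefficient of 0.48 between log10 values. Over 2468 other nuclear peaks these were 0.41 and 0.65. These are correlations across peaks picked by the pooled signal of the same 2 libraries, a choice that itself bears on the coefficients. The peaks are not independent replicates. The ratio of replicate 2 to replicate 1 had a median of 0.96 and ran from 0.33 to 3.10; it was over 2 at 17 peaks, and replicate 1 was more than 2 times replicate 2 at 23. Neighbouring summits could be matched to 1 replicate peak: 40 of the 342 shared a replicate 1 peak with another of the set and 34 a replicate 2 peak. C05D2.17, with a pooled signal of 87.0 but 193 and 183 in the replicates, shows that a weak pooled peak can also be matched to a strong replicate peak.

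**Figure D2:**
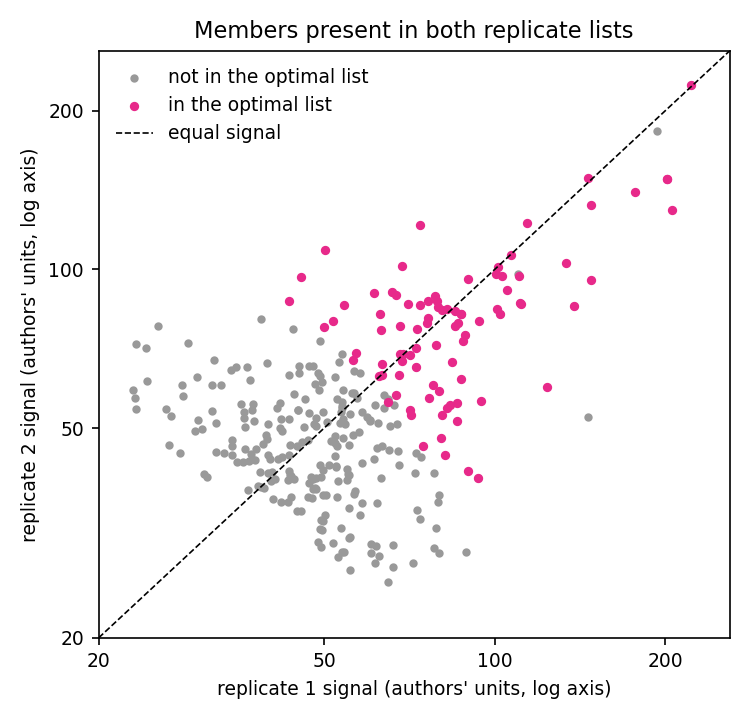
Signal values in replicate 1 and replicate 2 (authors' units, both axes logarithmic) of the 331 peaks with a match in both relaxed lists, with the peaks of the optimal list in colour and a dashed line of equal signal. Peaks of the optimal list reach up to 222 and 223 at rpr-1, and the others form a broad cloud on both sides of the line; the grey point at 193 and 183 is C05D2.17.

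Position inside the window is part of the rule and is described without a test. The median distance to the closest such end was -13 bp, with quartiles of -260 and 92 bp. Of the 342 summits, 185 were upstream and 157 at or downstream of the end. Within 100 bp lay 132 (38.6%), within 250 bp 219 (64.0%) and farther than 500 bp 45 (13.2%). The fullest bins of 100 bp were those on either side of the end, with 76 summits downstream and 56 upstream. Since the closest of up to 14 genes in a window was taken, the distances lean towards 0 where genes are dense.

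Peaks close to a 5′ end had a higher median signal than distant ones. The 132 within 100 bp had a median signal of 107, 41 in the optimal list (31.1%) and 78 met in both replicates (59.1%). The 45 farther than 500 bp had a median of 96.2, 4 in the optimal list (8.89%) and 17 met in both (37.8%). Median GC content of the summit windows was 48.7% in the near peaks and 41.1% in the far ones; its part in the difference was not tested.

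**Figure D3:**
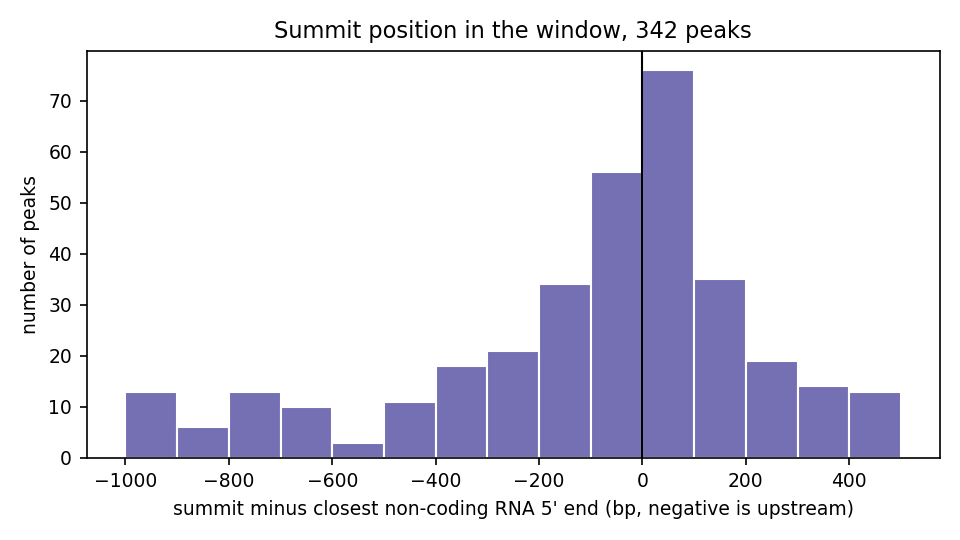
Number of the 342 summits (vertical axis) by distance to the closest non-coding RNA 5′ end in bins of 100 bp (horizontal axis, negative is upstream). The bins from 0 to 99 bp and from -100 to -1 bp hold 76 and 56 summits, and the tail upstream reaches the edge of the window.

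The rule nearly fixes which annotated gene start is closest to a summit, so the following describes the set and is no check of its label. In 341 of the 342 peaks the closest gene 5′ end of any biotype was a non-coding RNA of the 4 kinds, and in the remaining peak, at C26C6.14, it was a snoRNA gene more than 200 bp from the summit. The closest protein-coding 5′ end was a median of 3060 bp away and more than 2000 bp away in 239. However, 36 of the 342 (10.5%) had the start of an annotated protein-coding transcript in the window, an alternative start inside a gene whose own 5′ end lies elsewhere, against 49.7% of all 2902 peaks. The rule removes peaks at protein-coding 5′ ends, so a share below that of all peaks was set by the choice. Among the peaks in no window, which lack those ends too, it was 13.3% (140 of 1052). Those 36 had a median signal of 98.3 and the other 306 of 99.7.

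Many of these genes lie close together. A single non-coding RNA gene was in the window of 204 peaks and 2 or more in that of 138, and 104 had 5′ ends on both strands. In 109 the summit lay inside a non-coding RNA gene. The windows held 591 different genes, and the summits fell into 309 places when those up to 1000 bp apart were joined, 31 of them with 2 or 3 summits.

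Genes of biotype ncRNA made up most of the set. Of 7764 nuclear genes of that biotype, 418 (5.38%) lay in the window of a peak, and 293 peaks had only such genes in the window. The share was 1.09% of piRNA genes (168 of 15363), 3 of 194 lincRNA genes and 2 of 100 antisense RNA genes. Genes that share a window count together here, and a gene next to a protein-coding start could not enter, so the shares are not rates of binding.

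piRNA genes were in the windows of 44 peaks, of which 35 were on chromosome IV, which carries 95.8% of all piRNA genes. At 33 peaks they were the only kind of gene. The highest of the 44 were at 21ur-14806 (II, 234 pooled, the T24B8.22 peak), at 21ur-14707 (IV:14496433-14496888; 203 pooled, 73.8 in replicate 1 and 121 in replicate 2) and at 21ur-15504 (IV:14874822-14875277; 202, 110 and 97.1), the last being the Y57G11C.1146 window shown above. In the second, replicate 2 was the higher by far, and a protein-coding transcript start lay in the window. Each of the last 2 windows held 5 piRNA genes. The summits lay at -439, +252 and +337 from the named piRNA genes, in the order given. An ncRNA gene was closer to each, in the second case Y57G11A.225 at +7.

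Next came 21ur-13771 (II:4130250-4130705; 189 pooled, 100 in replicate 1 and 98.1 in replicate 2), 21ur-10289 (IV; 153, 84.2 and 66.8) and 21ur-8922 (IV; 150, 87.1 and 61.9), whose window held 10 piRNA genes. The 33 peaks with piRNA genes alone had a median signal of 92.1, with 7 in the optimal list (21.2%) and 13 met in both replicates (39.4%). The Ruby motif CTGTTTCA, which lies upstream of most clustered piRNA genes, was in the summit window of 2 of the 44 and of 2 peaks without a piRNA gene.

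Named long non-coding RNAs were few, and all were under 100. Of 170 linc genes 3 were in a window, linc-22 (X; 99.7 pooled, 43.3 in replicate 1 and 52.1 in replicate 2), linc-147 (III; 86.4, 29.96 and 51.8) and linc-54 (X; 82.2, with 54.7 in replicate 2 and no match in replicate 1). Of 57 anr genes, which are antisense to other genes, anr-20 was the only one (I, with 91.5, 56.5 and 37.4). Its summit lay at -947, and the ncRNA gene F16A11.13 was closer. Replicate 2 was the higher at the first 2 lincRNAs and replicate 1 at anr-20. The other antisense RNA gene lay in the window of the F48C1.13 peak inside let-526, which had 185 pooled.

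Introns of protein-coding genes held 143 of the 342 summits (41.8%), against 32.3% of all 2902. Exons held 19 (5.56%, against 11.3%), and 180 lay outside protein-coding genes (52.6%, against 56.4%). The rule takes out peaks at protein-coding 5′ ends, which touches these shares directly. Peaks in no window at all had 49.3% in introns and peaks in protein-coding or miRNA windows 10.2%. Of the 162 summits inside a protein-coding gene, 48 were in one on the strand of the closest non-coding RNA gene. There were 136 such host genes, 23 with 2 or more summits, and C14B4.2, elf-1, let-526, ppfr-1 and prkl-1 had 3 each.

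**Figure D4:**
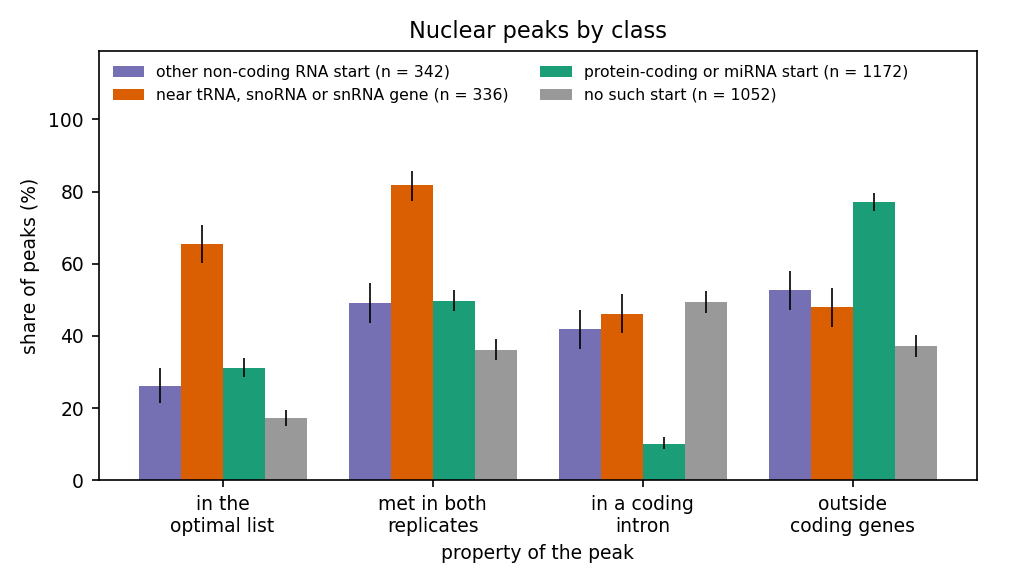
Share of nuclear peaks (vertical axis, percent) in the optimal list, met in both replicates, in introns of protein-coding genes and outside protein-coding genes, for 4 classes of peaks; bars start at 0 and lines are exact 95% binomial intervals. The 342 peaks at other non-coding RNA starts stand at 26.0%, 49.1%, 41.8% and 52.6%.

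A few of the 136 hosts are described here; they were picked by hand after their values were seen, and say nothing of the hosts as a group. In an intron of pha-4, the FoxA factor that specifies the pharynx, a peak near the ncRNA gene F38A6.9 (V:20756164-20756619) had a signal of 163 pooled, 76.3 in replicate 1 and 87.3 in replicate 2. It was in the optimal list, and a protein-coding transcript start lay in its window. A second summit of 96.2 (78.0 and 29.6) lay in an exon of pha-4. The first was the more even between replicates.

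In an intron of peb-1, a DNA-binding factor of the pharynx, the peak at T14F9.14 (X:2216664-2217119) had 153 pooled, 78.8 in replicate 1 and 71.9 in replicate 2, again with a protein-coding transcript start in the window. In an exon of ceh-22, the NK-2 factor of pharyngeal muscle, the peak near F29F11.19 (V:10672467-10672922) had 104, 60.2 and 51.6 and was not in the optimal list. A protein-coding transcript start also lay in the ceh-22 window. The window at the strongest summit in each of these 3 pharyngeal regulators is shown, with capitals as above.
pha-4 (chrV:20756317-20756467, minus strand): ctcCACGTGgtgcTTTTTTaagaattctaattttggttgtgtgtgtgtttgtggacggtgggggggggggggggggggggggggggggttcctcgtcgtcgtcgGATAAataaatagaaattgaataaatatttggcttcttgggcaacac
peb-1 (chrX:2216817-2216967, minus strand): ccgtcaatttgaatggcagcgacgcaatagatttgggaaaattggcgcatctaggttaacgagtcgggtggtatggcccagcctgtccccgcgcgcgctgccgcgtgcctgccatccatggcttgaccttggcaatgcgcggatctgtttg
ceh-22 (chrV:10672620-10672770, minus strand): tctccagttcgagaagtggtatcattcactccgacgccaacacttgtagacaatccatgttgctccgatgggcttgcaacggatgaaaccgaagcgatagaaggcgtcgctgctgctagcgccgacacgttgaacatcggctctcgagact

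The pha-4 window held the E-box CACGTG, the GATA motif, a run of T and a long run of G, and those at peb-1 and ceh-22 held none of the 12 motifs. In an intron of eya-1, a cofactor of homeobox proteins, the peak at C49A1.14 (I:14229064-14229519) had 128 pooled, 63.1 in replicate 1 and 76.8 in replicate 2, and no protein-coding transcript start lay in its window. Other hosts were ast-1, an ETS factor of neurons (189 pooled, 100 in replicate 1, 98.1 in replicate 2; the 21ur-13771 peak), ldb-1, a cofactor of LIM homeobox proteins (171, 103 and 97.1), and dlg-1, a protein of the apical junction (166, 82.5 and 84.1). In let-526, a subunit of a chromatin remodelling complex, 3 summits had 185, 144 and 85.4 in the pooled list, the first and last of them matched to the same replicate peaks. In the forkhead gene fkh-7 there were 2, with 150 and 113. Upstream of hbl-1, the hunchback-like zinc finger gene of developmental timing, 2 summits outside protein-coding genes had 114 and 106 and were not in the optimal list.

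Chromosome X held 91 of the 342 peaks, 26.6% (22% to 31.6%), against 18% of all 2902. It also holds 32.5% of ncRNA genes, and 17.7% of nuclear chromosome length, so the share on X lay between the share of peaks and the share of genes. V held 66 (19.3%, against 23.6%), IV 61 (17.8%, against 13.4%), III 46 (13.5%, against 15%), I 44 (12.9%, against 16.4%) and II 34 (9.94%, against 13.5%). Peaks on X had a median signal of 97.3 and those on the autosomes 100.1; 23.1% of the former and 27.1% of the latter were in the optimal list.

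**Figure D5:**
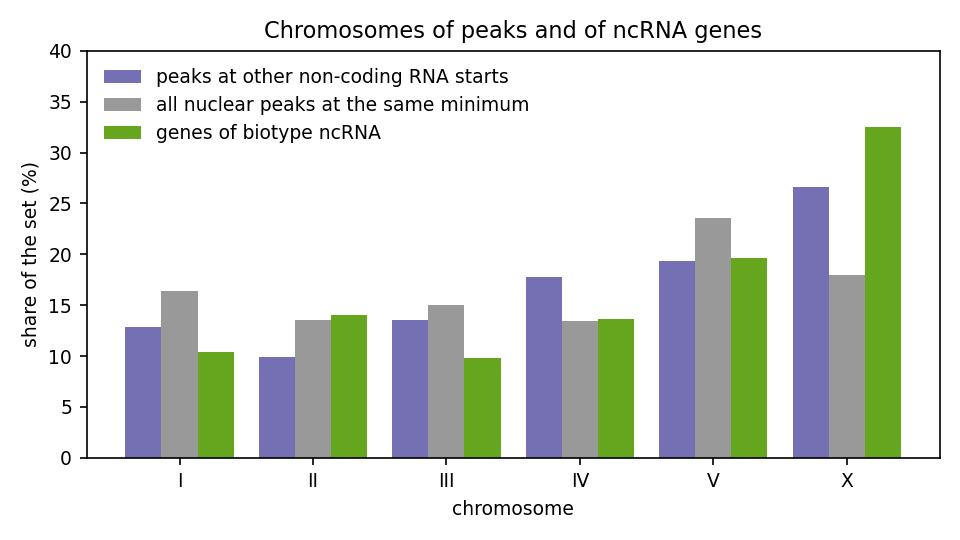
Share (vertical axis, percent) by chromosome of the 342 peaks, of all 2902 nuclear peaks at the same signal minimum and of the 7764 genes of biotype ncRNA. On X the values are 26.6%, 18.0% and 32.5%.

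Sequence was not used by the rule. The summit windows had a median GC content of 46.4%, against 43.0% in all other nuclear peaks, and a median of 13.2% of bases soft-masked as repeats, against 24.5%. The peaks near tRNA, snoRNA or snRNA genes had similar medians, 47.0% GC and 12.6% soft-masked. GAGAGA was in 105 of the 342 windows (30.7%), against 22.2% of all 2902. TTTTTT was in 99 (28.9%), against 43.6%. The tRNA B box core GGTTCGA was in 6 (1.75%), against 5.89%, and in 36.0% of the windows near tRNA, snoRNA or snRNA genes, which the rule had taken out. All motifs were searched on both strands, overlaps allowed.

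On the autosomes GAGAGA was in 33.1% of the set (27.3% to 39.3%) and 20.3% of the other peaks (18.6% to 22%). On X it was in 22 of 91 (24.2%, 15.8% to 34.3%) and in 24.8% (20.8% to 29.1%). The intervals of the set on X and on the autosomes overlap, and the difference between them was not tested. TTTTTT was rarer in the set on both, with 17.6% against 33.8% on X and 33.1% against 48.0% on the autosomes. GC content and repeats differ between these groups as well, and their part was not tested.

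The homeobox motifs were not more common than in all 2902 peaks. CAATTA was in 7.31% of the windows against 7.62%, and TAATTA in 4.09% against 5.38%. The FoxA motif TGTTTAC was in 4.09% against 2.65%, and TGTTTGC in 8.48% against 5.96%. GATAA was in 22.2% against 21.6%, CACGTG in 2.92% against 2.76%, CAGCTG in 2.05% against 3.31%, CTGCGTCT in 5.85% against 5.41% and CTGTTTCA in 1.17% against 0.586%. In windows of 3 widths the order of the set and the other peaks stayed the same for 7 of the 12 motifs, among them GAGAGA as well as TTTTTT and also the FoxA motif TGTTTAC, but neither of the motifs CAATTA and, for FoxA, TGTTTGC.

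RNA polymerase III is known to end transcription at runs of T, and the 30 bp after each gene's end were searched for TTTT. It was found for srpr-1.2, srpr-2.1, srpr-2.2 and srpr-3 but not for rpr-1 or srpr-1.1. Among the ncRNA genes closest to the peaks it was found in 75 of 281 (26.7%), against 2417 of all 7764 (31.1%). Second copies of the summit window in the genome were found for 11 of the 342 (3.22%, against 3.2%), from 1 copy to 163 at F09F3.17, 94.7% of whose window is soft-masked.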

How the data were processed

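ChIP-seq of GFP-tagged PHA-2 in 2 replicates of 1 group was analysed from the deposited narrowPeak lists on ce11: 1 relaxed list per replicate, 1 of the pooled replicates and 1 optimal list. The signal value of each peak is the authors' own, and the deposited −log10 q-value was read but used for no result. No source used here names the peak caller or the aligner. Summits were made 1-based and compared with Ensembl release 115 gene ends on WBcel235, the same assembly as ce11. Signal values were ranked within a list, never averaged across lists. Sequences came from the RefSeq WBcel235 genome, and copies were found with BLAST 2.17.0. The steps were written in Python 3.11.15 with pandas 2.3.3 and tested on simulated data.

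The 342 peaks, the gene lists and the motifs were chosen with earlier results of these data known. Genes named were the 12 strongest peaks, up to 6 per list of structural, linc, anr and 21ur genes, the 2 peaks on either side of the minimum and up to 3 met in neither replicate; the host genes, C05D2.17, C26C6.14, F09F3.17 and the 5 structural RNA genes without a peak in the set fall outside that rule. Alternatives were other signal minimums, windows, distance rules, replicate lists and motif windows.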

Additional observations from a re-analysis of the deposited data

How the results depend on the processing

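A signal minimum of 120 left 91 peaks, with 97.8% in the optimal list, 95.6% met in both replicates, a median signal of 150 and a median distance of 17 bp; a higher minimum raises these shares by its construction. Without the distance rule for tRNA, snoRNA and snRNA genes, the count was 488, since strong peaks near those genes then enter. Of these, 38.5% were in the optimal list and 60.2% met in both. Their median signal was 110 and their median distance 14.5 bp. A window of 500 bp upstream to the 5′ end kept 204 peaks with a median distance of -162 bp. One of 2000 bp upstream to 500 bp downstream gave 368 peaks and -120 bp. The first of these windows admits no downstream summit and the second reaches farther upstream, so their medians lean upstream by construction. With the minimum of 120, or without the distance rule, the median lay downstream of the 5′ end, against -13 bp in the main setting. Counting a replicate summit only within 100 bp of the pooled summit gave 36.3% met in both. The whole relaxed lists gave 96.8%, against 96.5% of all 2902 nuclear peaks. With 1 replicate's list in place of the pooled one, the count was 347 to 350, the optimal share 28.9% to 29.1%, the share met in both 46.9% to 47.3%, the median distance -29.5 to -14 bp and the median signal 52.5 to 54.9, on the replicates' own scale. Further settings, chosen after seeing the data, left out alternative protein-coding starts, structural RNAs or copied windows. In that order they gave 306, 334 and 331 peaks, with 25.5%, 25.1% and 26% in the optimal list. The shares met in both were 49.3%, 48.2% and 49.5%. Median distances were -13, -16 and -13 bp, and median signals 99.7, 99 and 99.5. Summits read without the shift to 1-based positions, also a later choice, gave 341 peaks. No paired analysis was possible because there is 1 group and no test. Depth is unknown and limits what weak peaks show.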
